A study of Saccharomyces cerevisiae with 24 samples.

Results

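Copper uptake and delivery and the low-affinity iron transporter were followed in budding yeast through 9 genes. They were chosen by name for their role, as copper transporters (*CTR1*, *CTR2*, *CTR3*), metalloreductases (*FRE1*, *FRE7*), the copper-responsive activator *MAC1*, copper delivery genes (*ATX1*, *CCC2*) and *FET4*. All 9 were measured on each of the 2 array types, among 5449 genes on one, 5656 on the other and 5240 on both. The study asked how the transcripts of *Saccharomyces cerevisiae* respond to oxygen, heme, the heme-responsive activator Hap1 and cobalt, with 3 Affymetrix arrays for each of 8 conditions.

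Strain L51 gave 18 arrays. Its chromosomal *HAP1* is disrupted in all of them (*hap1::LEU2*), and its *trp1::HisG*, *ura3-52*, *his4-519*, *ade1-100* and *leu2* alleles are shared by all 6 conditions. *HAP1* cells carried *HAP1* on an ARS-CEN plasmid and were kept without oxygen for 1.5 or 6 h, in air for 6 h with cobalt chloride at 400 µM, or in air alone. *Δhap1* cells carried the empty plasmid and were kept without oxygen for 6 h or in air. Strain MHY100 gave the other 6 arrays, of another type. It has the *hem1-Δ100* deletion and the same *ura3*, *his4*, *ade1* and *leu2* alleles. It cannot make the heme precursor 5-aminolevulinic acid, and it was supplied with 2.5 µg/ml of that precursor (heme-deficient cells) or 250 µg/ml (heme-sufficient cells). The cells came from 3 batches of independently grown cultures, and the study also says that 1 of the replicates was of another strain without saying which.

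Copper enters yeast as the reduced ion. Plasma membrane metalloreductases such as Fre1 and Fre7 reduce it, and Ctr1 and Ctr3 carry it into the cell, while Ctr2 returns copper from the vacuole to the cytosol. When copper is scarce the activator Mac1 turns on *CTR1*, *CTR3*, *FRE1* and *FRE7*. The chaperone Atx1 hands copper to Ccc2, a copper pump of the Golgi that loads the multicopper oxidase Fet3, so high-affinity iron uptake by Fet3 and Ftr1 needs copper as well as oxygen. Fet4 takes up ferrous iron with low affinity and without oxygen, and it also carries copper, zinc and cobalt. *FET4* is known to be repressed in air by Rox1, whose own gene is activated by heme through Hap1, and it is also under Aft1, the activator of the iron regulon.

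Values are log2 of the array intensity, and each gene is compared only with itself between conditions on 1 array type. The RNA was that of whole cultures, so a change in all cells and a larger one in some of them cannot be told apart. Median intensity was 264 to 301 on the L51 arrays and 89.1 to 93 on the MHY100 arrays. The log2 background, taken as the 95th percentile of the fission yeast probe sets on the same L51 array, was between 7.84 and 9.06, and 66.2% to 94.1% of genes were above it. *HAP1* itself had log2 intensities of 5.76 to 6.57 on the 6 arrays of *Δhap1* cells and 9.77 to 12.13 on the 12 arrays of *HAP1* cells. The cobalt arrays are named as *HAP1* cells in the titles and as empty-plasmid cells in another label. Their *HAP1* level was 10.23 to 10.98. In MHY100 the level of *HEM1* was 8.11 ± 0.46 in heme-deficient cells and 7.74 ± 0.23 in heme-sufficient cells (SD, n = 3). Whether its probes lie in the deleted stretch is not given in the sources used here, so this level does not check the label. The hypoxic gene *ANB1* set 2 arrays against their labels. It read 9.02 on the array labelled 1.5 h replicate 3, against 14.14 and 13.41 on the other 1.5 h arrays, and 12.22 on the array labelled cobalt replicate 3, against 9.64 and 9.49 on the other cobalt arrays. The hypoxic gene *DAN1* read 8.01 on that 1.5 h array, against 14.15 and 13.57. On that cobalt array it read 9.26, against 8.63 and 8.53, below the *HAP1* 6 h arrays (12.77 to 14.55). The aerobic gene *CYC1* read 9.41 on that cobalt array, against 13.51 and 13.46, and 13.72 on that 1.5 h array, against 12.58 and 13.15. *HAP1* 6 h replicate 3 also stood apart, with *ANB1* at 13.02 (others 14.31 and 14.33) and *DAN1* at 12.77 (others 14.5 and 14.55). Beside the differences of the 9 genes that rest on the 1.5 h and cobalt replicate 3 arrays and are described here, values without them are given. Fits with the hybridization round as the block are the exception. A gene was called changed at a limma p-value under 0.05 after Benjamini-Hochberg adjustment over all genes.

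*FET4* (YMR319C) had its highest mean level of the 6 L51 conditions in *HAP1* cells at 6 h without oxygen. Its log2 intensity there was 12.59, 12.04 and 12.1, against 10.27, 9.0 and 11 in *HAP1* cells in air. All 3 arrays at 6 h were above all 3 in air, by 2.32, 3.05 and 1.10 between arrays of the same number. The 9.0 of *HAP1* air replicate 2 was barely above the background of that array (8.99), so the size of the 3.05 is uncertain. The difference was 2.15 on the log2 scale (SE 0.60, 4.45-fold), which missed the threshold with all arrays in the fit (adjusted p = 0.085). Without the array labelled 1.5 h replicate 3 the adjusted p was 0.025, and without the array labelled cobalt replicate 3 it was 0.036. Neither array belongs to the groups compared, and both enter these fits through the shared spread. The difference missed the threshold when any of 16 of the 18 arrays was left out on its own (highest adjusted p = 0.31). No 6 h array was hybridized in the same round as an array in air, where a round is a run of arrays on the same day with no gap of over 30 minutes. With the round as the block the *FET4* difference was 0.69 (adjusted p = 0.77).

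At 1.5 h without oxygen *FET4* read 12.44 and 11.29 in *HAP1* replicates 1 and 2 and 10.03 in replicate 3. The third is the array whose *ANB1* was below that of every *HAP1* array in air (9.63 to 10.46). With all 3 arrays the 1.5 h difference from air was 1.16 (SE 0.60, adjusted p = 0.36), and without replicate 3 it was 1.95 (adjusted p = 0.042). The 6 h arrays were 0.99 higher than the 1.5 h arrays (SE 0.60, adjusted p = 0.27), with overlap, and 0.20 higher without 1.5 h replicate 3 (adjusted p = 0.81). With cobalt *FET4* read 10.52, 10.28 and 12.45, and again the replicate 3 array stood apart, here above every array in air. The cobalt difference was 0.99 (SE 0.60, adjusted p = 0.51) with that array and 0.23 (adjusted p = 0.85) without it.

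In *Δhap1* cells *FET4* was at 12.61, 11.62 and 11.49 at 6 h without oxygen, against 11.90, 10.89 and 11.52 in *Δhap1* cells in air. These groups overlapped and differed by 0.47 (SE 0.60, adjusted p = 0.61), and with the hybridization round as the block the sign turned (difference -1.0, adjusted p = 0.53). In air alone *Δhap1* cells averaged 11.44 ± 0.51 and *HAP1* cells 10.09 ± 1.01 (SD, n = 3). The limma difference of 1.35 (SE 0.60) had an unadjusted p of 0.043 and an adjusted p = 1, and within the 3 hybridization rounds it was 1.63, 1.89 and 0.51. The 1.89 also rests on *HAP1* air replicate 2, which was near background. At 6 h *Δhap1* cells averaged 11.91 ± 0.61 and *HAP1* cells 12.24 ± 0.30, a difference of -0.34 (SE 0.60, adjusted p = 1). The 6 h change of *FET4* in *Δhap1* cells minus that in *HAP1* cells was -1.68 (SE 0.85, 95% confidence interval -3.51 to 0.15), with an adjusted p = 0.93 in limma (unadjusted 0.069).

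**Figure D1:**
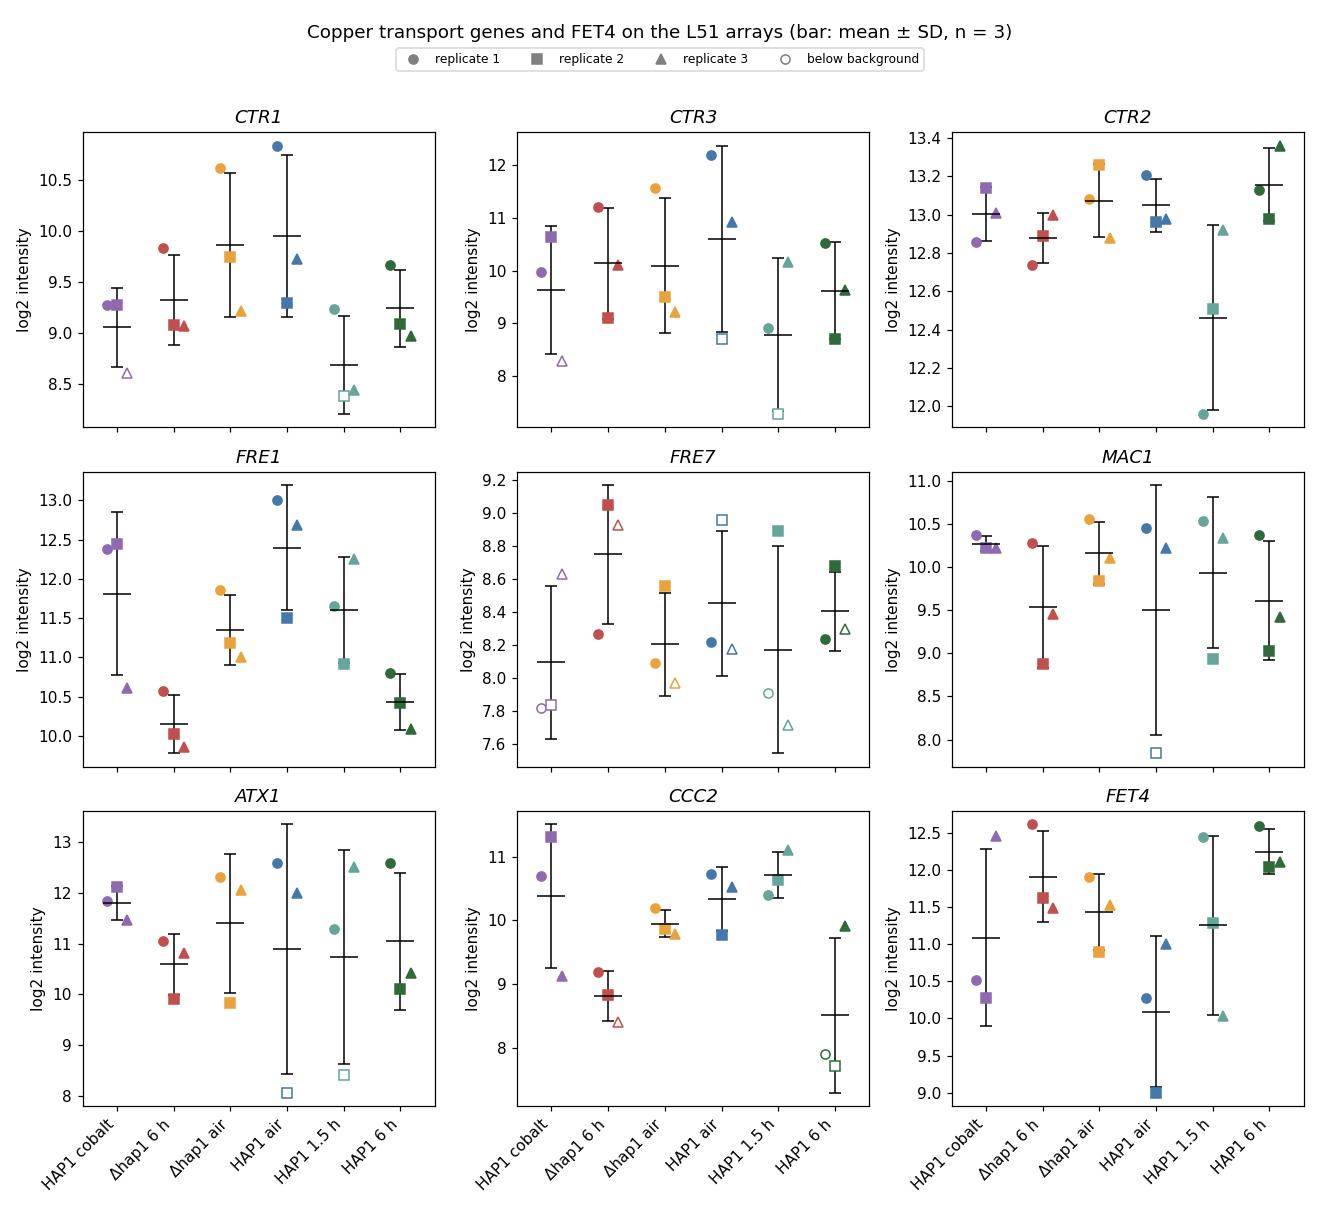
Log2 intensity (y) of each of the 9 genes in the 6 L51 conditions (x), with 1 point per array, its shape giving the replicate number, open points at or below the fission yeast background, and bars at the mean ± SD (n = 3). *FET4* at 6 h in *HAP1* cells (12.04 to 12.59) lies above *HAP1* cells in air (9.0 to 11), and *FRE1* at 6 h (10.09 to 10.80) lies below air (11.50 to 13.01).

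In the other strain *FET4* showed the smallest adjusted p of the 9 genes. It read 10.04, 9.90 and 9.97 in heme-deficient cells, against 7.80, 8.40 and 7.89 in heme-sufficient cells. Every heme-deficient array was above every heme-sufficient array, and the SD was 0.07 in heme-deficient cells and 0.33 in heme-sufficient cells. *FET4* rose by 1.94 (SE 0.19, 3.83-fold, adjusted p = 0.0034) under heme deficiency. Within the 2 hybridization rounds of known membership the difference was 1.50 and 2.20. The call remained when any of the 6 arrays was left out (adjusted p between 0.0037 and 0.037).

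The L51 genes most like *FET4* over the 18 arrays, after the mean of each replicate number was taken away, were the ribonucleotide reductase genes *RNR2* (r = 0.89) and *RNR4* (r = 0.87) and *ANB1* (r = 0.87), which encodes a hypoxic form of eIF5A. The 18 arrays include replicates of 6 conditions, so these values describe the likeness and carry no test. Among the 9 genes *FRE1* (r = -0.76) and *CCC2* (r = -0.62) ran most strongly against *FET4* in the same arrays.

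**Figure D2:**
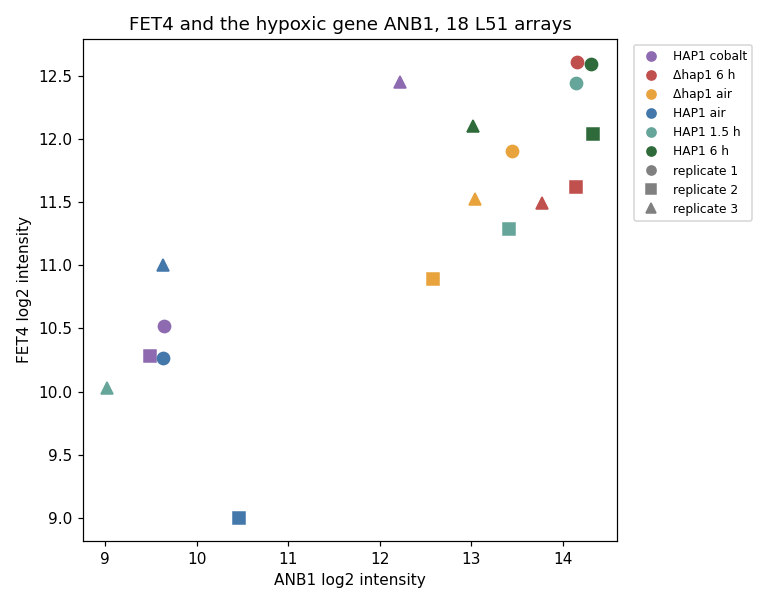
Log2 intensity of *FET4* (y) against that of the hypoxic gene *ANB1* (x) on the 18 L51 arrays, with colour for the condition and shape for the replicate number. The arrays labelled 1.5 h replicate 3 (*ANB1* 9.02, *FET4* 10.03) and cobalt replicate 3 (*ANB1* 12.22, *FET4* 12.45) lie apart from the others of their conditions.

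Of the copper importers, *CTR1* (YPR124W) read 9.24, 8.38 and 8.44 in *HAP1* cells at 1.5 h without oxygen, against 10.84, 9.30 and 9.73 in air. The groups did not overlap, and replicate 2 at 1.5 h was below background. The difference was -1.27 (SE 0.25, adjusted p = 0.10), and none of the 9 genes passed the threshold at 1.5 h, where 0.0367% of all genes did. *CTR1* passed in 5 of 30 alternative fits. Among them were quantile scaling of the arrays (-1.48, adjusted p = 0.030), cyclic loess scaling (-1.52, adjusted p = 0.026) and the fits without the array labelled 1.5 h replicate 3 (-1.33, adjusted p = 0.019) or without *HAP1* air replicate 2 (-1.54, adjusted p = 0.046). It missed the threshold when any of 16 of the 18 arrays was left out on its own (highest adjusted p = 0.58). In the 2 hybridization rounds that hold both conditions the difference was -1.59 and -1.30. With cobalt *CTR1* read 9.28, 9.28 and 8.61, the last below its background of 8.72. The cobalt arrays were below all 3 arrays in air, and replicate 2 was only 0.01 below the air array of its number. That difference was -0.90 (SE 0.25), with an adjusted p = 0.41 in limma (unadjusted 0.0029), and it was -0.84 (adjusted p = 0.32) without the array labelled cobalt replicate 3.

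At 6 h without oxygen *CTR1* averaged 9.24 ± 0.37 in *HAP1* cells, against 9.96 ± 0.80 in air (difference -0.71, SE 0.25, adjusted p = 0.16). In *Δhap1* cells it averaged 9.33 ± 0.44 at 6 h and 9.87 ± 0.71 in air (difference -0.53, SE 0.25, adjusted p = 0.16). In MHY100 it averaged 5.52 ± 0.26 in heme-deficient cells, against 5.75 ± 0.34 in heme-sufficient cells (-0.23, 95% confidence interval -0.74 to 0.28, adjusted p = 0.56). The estimate for *CTR1* was thus below 0 in each of these comparisons, without a call in any.

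*CTR3* (YLR411W), the other high-affinity importer, separated the heme groups. It read 5.78, 6.20 and 5.13 in heme-deficient cells, against 8.24, 7.65 and 7.96 in heme-sufficient cells. All 3 heme-deficient arrays were lower, with differences of -2.45, -1.45 and -2.83 between arrays of the same number. *CTR3* fell by 2.24 on the log2 scale (SE 0.28, 4.73-fold, adjusted p = 0.0087). Within the 2 hybridization rounds the difference was -1.45 and -2.31. Leaving out heme-sufficient replicate 1 gave an adjusted p of 0.055, and leaving out heme-sufficient replicate 3 gave 0.065.

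On the L51 arrays *CTR3* varied widely between replicates, with an SD of 0.91 to 1.77 within a condition beside condition means of 8.79 to 10.60. In *HAP1* cells at 6 h it read 10.53, 8.70 and 9.63, and in air 12.19, 8.70 and 10.92. Replicate 1 was the highest array of its condition in *HAP1* cells at 6 h, in *HAP1* cells in air and in *Δhap1* cells at both oxygen levels, but not at 1.5 h or with cobalt. *HAP1* air replicate 2, 1.5 h replicate 2 (7.28) and cobalt replicate 3 (8.29) were below background. The 1.5 h difference from air was -1.81 (SE 0.76, adjusted p = 0.28) and the 6 h difference -0.98 (SE 0.76, adjusted p = 0.55). Without the array labelled 1.5 h replicate 3 the 1.5 h difference was -2.70 (adjusted p = 0.041).

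*CTR2* (YHR175W), the vacuolar exporter, was above background on all 18 L51 arrays, with an SD of 0.13 to 0.48 within a condition. At 1.5 h without oxygen it read 11.96, 12.51 and 12.92 in *HAP1* cells, against 13.21, 12.96 and 12.98 in air. The groups did not overlap, although replicate 3 was only 0.06 below the air array of its number, and the difference was -0.59 (SE 0.22, adjusted p = 0.27). Without that replicate *CTR2* was called (-0.81, adjusted p = 0.042). At 6 h its arrays read 13.13, 12.98 and 13.36, all above the 1.5 h arrays, by 0.70 (SE 0.22, adjusted p = 0.051). Left out on its own, *HAP1* air replicate 2, cobalt replicate 2 or 1.5 h replicate 3 each brought that comparison past the threshold, the last with a difference of 0.92 (adjusted p = 0.011). Leaving out any of the other 15 arrays did not (highest adjusted p = 0.23). In MHY100 *CTR2* averaged 10.26 ± 0.28 in heme-deficient cells and 9.74 ± 0.27 in heme-sufficient cells, without overlap, a difference of 0.52 (SE 0.21, adjusted p = 0.25).

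The reductase gene *FRE1* (YLR214W) was the only 1 of the 9 called between *HAP1* cells at 6 h without oxygen and in air, where 2.15% of all genes were. It read 10.80, 10.42 and 10.09 at 6 h, against 13.01, 11.50 and 12.69 in air. All arrays at 6 h were lower than all arrays in air, with differences of -2.21, -1.09 and -2.60 between arrays of the same number. *FRE1* fell by 1.96 (SE 0.45, 3.90-fold, adjusted p = 0.04). The call is near the threshold: it was lost when any of 13 of the 18 arrays was left out (highest adjusted p = 0.24, without *HAP1* 6 h replicate 1), with no replicate block (adjusted p = 0.12) and with the hybridization round as the block (difference -1.33, adjusted p = 0.37). The round fit was again linked only through the 1.5 h and cobalt arrays. Over the single arrays left out the difference was between -2.37 and -1.67.

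In *Δhap1* cells *FRE1* read 10.57, 10.02 and 9.86 at 6 h, against 11.86, 11.19 and 11.01 in air. These groups did not overlap either, and the 3 differences by number were -1.29, -1.16 and -1.14. The fitted difference of -1.20 (SE 0.45, adjusted p = 0.097) missed the threshold, in a comparison where 10.9% of all genes passed it and none of the 9 did. With the hybridization round as the block, again linked only through the 1.5 h and cobalt arrays, it was -0.56 (adjusted p = 0.60). *FRE1* in *Δhap1* cells in air was lower than in *HAP1* cells in air in each of the 3 rounds (differences of -1.14, -0.32 and -1.68), with an adjusted p = 1 in limma (unadjusted 0.036). The 6 h change did not differ detectably between *Δhap1* and *HAP1* cells (difference 0.76, 95% confidence interval -0.61 to 2.14, adjusted p = 0.93).

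The intermediate time lay between the others. At 1.5 h *FRE1* read 11.65, 10.91 and 12.26 in *HAP1* cells, overlapping the arrays in air (difference -0.79, SE 0.45, adjusted p = 0.40), and without replicate 3 the difference was -1.31 (adjusted p = 0.076). The 6 h arrays were all below the 1.5 h arrays (difference -1.17, SE 0.45, adjusted p = 0.088), by less without 1.5 h replicate 3 (-0.66, adjusted p = 0.28). With cobalt *FRE1* read 12.38, 12.44 and 10.61. The low value is the replicate 3 array with raised *ANB1*, and the cobalt difference from air was -0.59 (SE 0.45, adjusted p = 0.57) with it and 0.01 (adjusted p = 1) without it.

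*FRE1* was lower under heme deficiency as well. It read 5.95, 5.85 and 5.68 in heme-deficient cells, against 7.81, 7.04 and 7.15 in heme-sufficient cells. The groups did not overlap. *FRE1* fell by 1.50 (SE 0.22, 2.83-fold, adjusted p = 0.018), and by 1.18 and 1.53 within the 2 hybridization rounds. The adjusted p was 0.063 without heme-deficient replicate 3, 0.08 without heme-sufficient replicate 3 and 0.076 with an offset of 50 added to each intensity (difference -0.99). Thus 3 of the 9 genes were called between heme-deficient and heme-sufficient cells, *FET4* higher and *CTR3* and *FRE1* lower, where 1.64% of all genes were called (0.407% higher and 1.24% lower). Of the 9, *FET4* and *CTR2* had all heme-deficient arrays above and 4 had all below, where 7.9% of all genes were above and 16.7% below without overlap.

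*FRE7* (YOL152W), the second reductase gene under Mac1, was at or below background on 10 of the 18 L51 arrays. Its mean was between 8.09 and 8.75 in the 6 L51 conditions, and it was called in no comparison. Between *Δhap1* cells at 6 h and in air it differed by 0.55 (SE 0.29, adjusted p = 0.21). In MHY100 it averaged 3.96 ± 0.23 in heme-deficient cells and 3.91 ± 0.33 in heme-sufficient cells, at the 4.3 percentile of all genes. At such signal a change in *FRE7* may not be detectable.

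**Figure D3:**
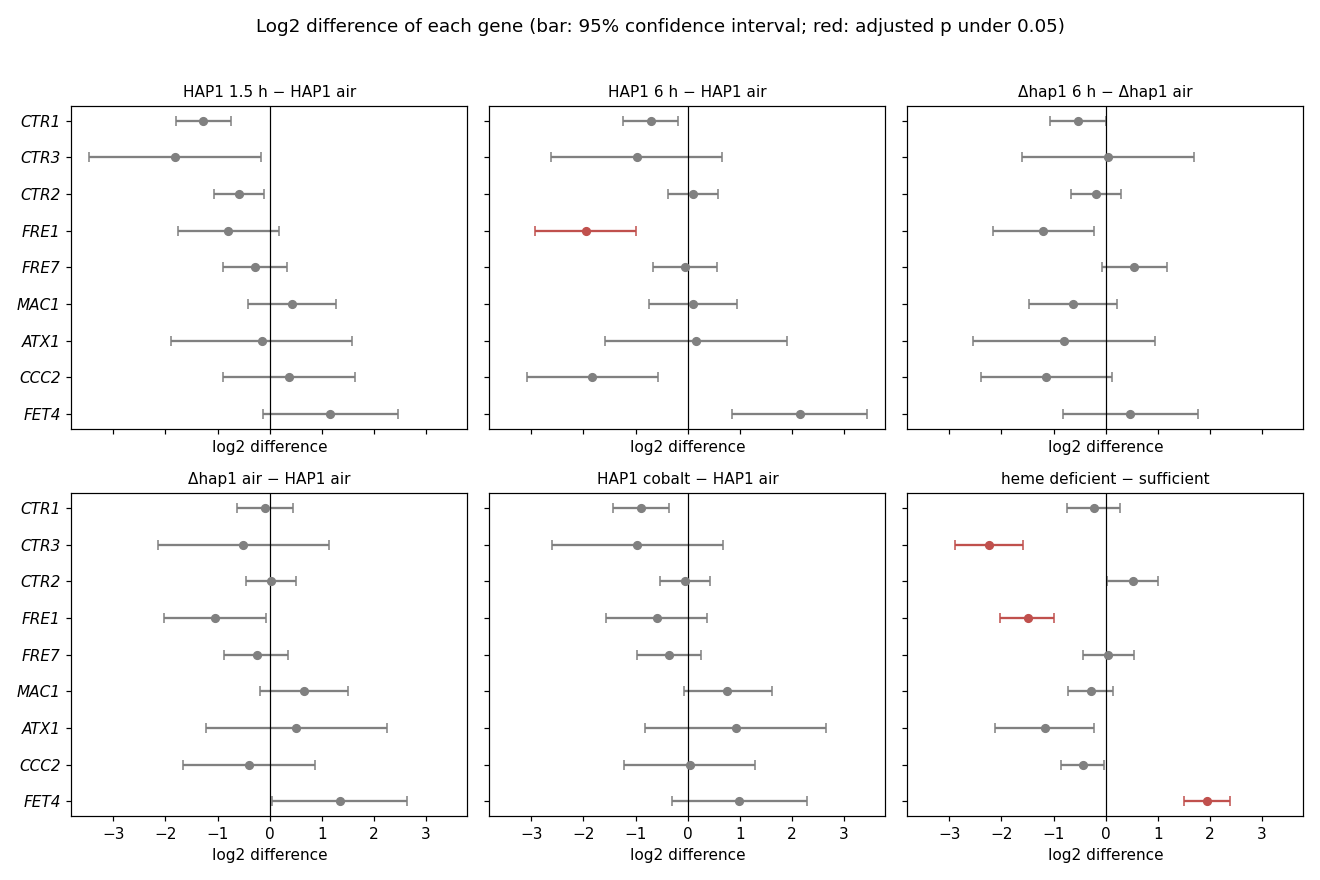
Log2 difference (x) of each of the 9 genes (y) in 6 comparisons, with 95% confidence intervals from limma and called genes in red. *FRE1* is called at 6 h in *HAP1* cells (-1.96), and *CTR3* (-2.24), *FRE1* (-1.5) and *FET4* (1.94) under heme deficiency.

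The transcript of *MAC1* (YMR021C) itself was called in no comparison. In *HAP1* cells it averaged 9.61 ± 0.69 at 6 h without oxygen and 9.50 ± 1.44 in air, a difference of 0.11 (SE 0.39, 95% confidence interval -0.74 to 0.95). *HAP1* air replicate 2 was at 7.84, below its background of 8.99, whereas the other 2 air arrays read 10.45 and 10.22. In MHY100 *MAC1* averaged 6.53 ± 0.29 in heme-deficient cells and 6.82 ± 0.13 in heme-sufficient cells (difference -0.29, SE 0.19, adjusted p = 0.41). Mac1 activity is set by copper and was not measured by these arrays.

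The chaperone gene *ATX1* (YNL259C) had the largest SE of the 9 on the L51 arrays (0.81). It read 12.60, 10.11 and 10.43 in *HAP1* cells at 6 h, against 12.60, 8.06 and 12 in air. Again *HAP1* air replicate 2 was below background, as was 1.5 h replicate 2 (8.41). The 6 h difference was 0.16 with a 95% confidence interval of -1.58 to 1.90, so a change of several fold in either direction was not detectable here. In MHY100 *ATX1* read 7.20, 8.98 and 8.62 in heme-deficient cells, against 9.25, 9.53 and 9.53 in heme-sufficient cells. All heme-deficient arrays were lower, by -1.17 in the fit (SE 0.41, adjusted p = 0.22), and with the hybridization round as the block, which leaves out heme-deficient replicate 3, *ATX1* was called (-1.53, adjusted p = 0.027).

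*CCC2* (YDR270W), the Golgi copper pump, was called in 1 of the 9 comparisons, between the 2 times without oxygen. It read 7.91, 7.72 and 9.91 in *HAP1* cells at 6 h, against 10.40, 10.64 and 11.11 at 1.5 h. The 6 h arrays were all lower, and replicates 1 and 2 at 6 h were below background, so their level is only a bound. *CCC2* fell by 2.21 (SE 0.59, adjusted p = 0.031), in a comparison in which 15.3% of all genes were called and their median difference was -0.23. It stayed called with quantile scaling (-1.88, adjusted p = 0.042), which brings that median to -0.03. It also stayed called without the array labelled 1.5 h replicate 3 (-1.99, adjusted p = 0.048). In the 1 round that holds both times the difference was -2.92. With the round as the block the difference was -1.90 (adjusted p = 0.17), with no replicate block its adjusted p was 0.067, and the call was lost without *HAP1* 6 h replicate 1 (adjusted p = 0.16) or 2 (0.13) or 1.5 h replicate 1 (0.10) or 2 (0.13).

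In air *CCC2* in *HAP1* cells read 10.73, 9.77 and 10.52, and the 6 h difference from air was -1.83 (SE 0.59, adjusted p = 0.13). Leaving out 6 h replicate 3, the array at 9.91, made it -2.65 (adjusted p = 0.0091). Without any of the other 17 arrays it missed the threshold (highest adjusted p = 0.52). In *Δhap1* cells *CCC2* read 9.19, 8.83 and 8.41 at 6 h, against 10.19, 9.86 and 9.79 in air, without overlap. Replicate 3 at 6 h was below its background of 9.06, so its level is only a bound, and replicate 2 was barely above its background of 8.8. The difference of these groups was -1.14 (SE 0.59, adjusted p = 0.21). In MHY100 it averaged 7.21 ± 0.13 in heme-deficient cells and 7.65 ± 0.27 in heme-sufficient cells (difference -0.44, SE 0.18, adjusted p = 0.25).

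The 3 genes nearest to *CCC2* over the 18 L51 arrays were *FTR1* (r = 0.92), which encodes the iron permease, *ADI1* of methionine salvage (r = 0.91) and *FET3* (r = 0.90), the oxidase that Ccc2 supplies with copper. Those nearest to *FRE1* were *UPS2* (r = 0.92) and *COX13* (r = 0.91), both for mitochondrial proteins, and the open reading frame *YER053C-A* (r = 0.90). *FRE1* and *CCC2* also ran together (r = 0.79). On the 6 MHY100 arrays, which fall into the 2 heme groups, the likeness to *CCC2* was 0.92 for *FET3*, 0.77 for *ADI1* and only 0.25 for *FTR1*. All the values over the L51 arrays share the same 18 arrays.

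**Figure D4:**
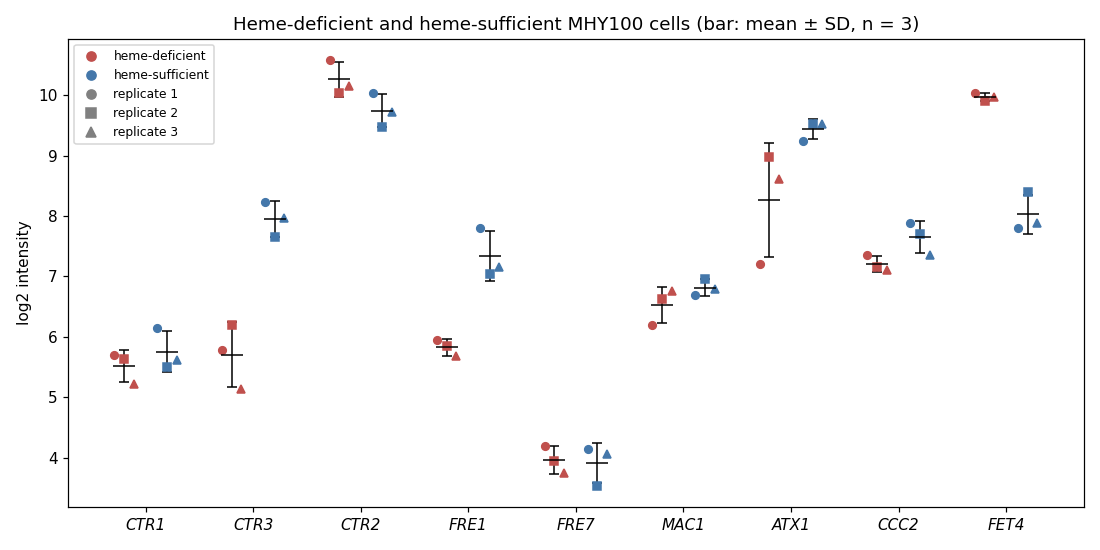
Log2 intensity (y) of the 9 genes (x) on the 6 MHY100 arrays, heme-deficient left of heme-sufficient, with 1 point per array and bars at the mean ± SD (n = 3). *FET4* lies at 9.90 to 10.04 in heme-deficient and 7.80 to 8.40 in heme-sufficient cells, and *CTR3* and *FRE1* lie lower in heme-deficient cells without overlap.

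Genes around this set gave the following counts. Of 20 high-affinity iron uptake genes and other targets of Aft1, none was called higher and 2 lower in *HAP1* cells at 6 h against air, with a list median of -0.25 beside -0.10 for all genes, of which 1.32% were called higher and 0.826% lower. They were *FET3* (-3.19, SE 0.65, adjusted p = 0.028) and *HMX1*, the heme oxygenase (-2.98, SE 0.55, adjusted p = 0.022). The *FET3* arrays at 6 h were spread from 9.05 to 13.08 (SD 2.1), against 13.68 to 14.35 in air. At 6 h against 1.5 h 3 were higher and 4 lower, with a list median of 0.07, where 3.56% of all genes were higher and 11.7% lower with a median of -0.23. Without the array labelled 1.5 h replicate 3, 5 were higher and 4 lower, and 1424 of all 5449 genes were called. With all arrays in the fit the largest were *FET3* (-2.92, adjusted p = 0.021), *HMX1* (-2.49, adjusted p = 0.020), *FTR1* (-1.78, adjusted p = 0.021) and the cell wall mannoprotein gene *FIT2* (1.54, adjusted p = 0.038). Without that array they were *FET3* (-2.97, adjusted p = 0.014), *FIT2* (2.11, adjusted p = 0.0038), *TIS11* (1.97, adjusted p = 0.0019) and *HMX1* (-1.95, adjusted p = 0.023). In *Δhap1* cells *FET3* alone was called at 6 h (-2.60, SE 0.65, adjusted p = 0.027), where 8.64% of all genes were lower. Under heme deficiency *HMX1* alone was called (-1.27, SE 0.22, adjusted p = 0.033), where 1.24% of all genes were lower. *FET3* in heme-deficient cells averaged 7.91, against 9.51 in heme-sufficient cells (difference -1.60, SE 0.40, adjusted p = 0.12).

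Of 13 genes of copper buffering and copper enzymes on the L51 arrays, 1 was called at 6 h in *HAP1* cells against air, where 1.32% of all genes were called higher. It was *CCS1*, the copper chaperone of superoxide dismutase (1.15, SE 0.27, adjusted p = 0.048). At 6 h against 1.5 h the metallothionein gene *CUP1-1* (-0.95, SE 0.25, adjusted p = 0.029) and *COX19* (-1.23, SE 0.39, adjusted p = 0.048) fell, 2 of 13 beside 11.7% of all genes, with a list median of -0.20 beside -0.23. Without the array labelled 1.5 h replicate 3 these 2 stayed lower. In that fit *FRE6* (0.75, adjusted p = 0.022) and *SCO1* (0.71, adjusted p = 0.016) were called higher. *CUP1-1* also fell at 6 h in *Δhap1* cells (-1.17, SE 0.25, adjusted p = 0.017). Its signal cannot be told apart from that of its copy *CUP1-2*. None of the 12 on the MHY100 arrays was called under heme deficiency, with a list median of -0.01 beside -0.06 for all genes. Of 10 other divalent metal carriers *ZRT3*, the vacuolar zinc exporter, was the 1 called in any comparison (0.75 at 6 h against 1.5 h, SE 0.20, adjusted p = 0.031), where 3.56% of all genes were higher. Without the array labelled 1.5 h replicate 3 there were 3, in the fit whose larger count over all genes is given above.

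Among 8 regulators, *AFT1* was lower at 6 h than at 1.5 h (-1.53, SE 0.36, adjusted p = 0.023), as were *ROX1* (-2.47, SE 0.78, adjusted p = 0.048) and *MOT3* (-1.19, SE 0.35, adjusted p = 0.038), 3 of 8 beside 11.7% of all genes, with a list median of -0.86 beside -0.23. All 3 had their highest *HAP1* mean without cobalt at 1.5 h. In air, at 1.5 h and at 6 h *AFT1* averaged 10.21, 10.66 and 9.13, *ROX1* 11.48, 12.53 and 10.06, and *MOT3* 10.33, 11.06 and 9.87. Against air 0 of the 8 regulators were called at 1.5 h or at 6 h, where 0.0367% and 2.15% of all genes were. Without the array labelled 1.5 h replicate 3 the differences between 6 h and 1.5 h were -1.81 for *AFT1*, -3.09 for *ROX1* and -1.66 for *MOT3*. In that fit 5 of the 8 were lower, beside the larger count over all genes given above. Against air *ROX1* was -1.42 at 6 h in *HAP1* cells (SE 0.78, adjusted p = 0.38), and in heme-deficient cells it averaged 3.73, against 5.05 in heme-sufficient cells (difference -1.32, SE 0.30, adjusted p = 0.085). Both of these means were below the 25th percentile of the MHY100 arrays (5.08 to 5.24), so the size of that difference is uncertain. Of 8 other genes known to be repressed by Rox1, 2 were called higher at 6 h in *HAP1* cells, where 1.32% of all genes were, with a list median of 1.33 beside -0.10 for all genes. They were *COX5B*, the hypoxic subunit of cytochrome oxidase (2.66, SE 0.43, adjusted p = 0.014), and *HEM14* of heme synthesis (1.21, SE 0.23, adjusted p = 0.023). *ANB1* had the higher difference of 3.98 but missed the threshold (SE 1.01, adjusted p = 0.061). In *Δhap1* cells 2 were called higher at 6 h, where 2.24% of all genes were, with a list median of 0.70 beside -0.30. Under heme deficiency 3 were called, *ANB1* (5.00, adjusted p = 0.00034), *AAC3* (2.29, adjusted p = 0.010) and *HEM13* (1.73, adjusted p = 0.016), with a list median of 0.79 beside -0.06 and 0.407% of all genes called higher. The comparisons with *HAP1* cells in air share those 3 arrays. *HAP1* was the 1 regulator called between *Δhap1* and *HAP1* cells, lower in *Δhap1* cells in air and at 6 h. Only *HAP1* cells carried its plasmid copy, so the design set this result, and it was the 1 gene called of all 5449. *CYC1*, which the study names as a known direct target of Hap1, differed by -3.69 in air without overlap and was not called (limma adjusted p = 0.71). A missing call between these cells thus does not show that a gene was unchanged.

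In the remaining comparisons none of the 9 genes was called. Between *Δhap1* and *HAP1* cells in air 0.0184% of all genes were called, and at an unadjusted limma p under 0.05, which 1.39% of all genes had, stood 2 of the 9, *FET4* and *FRE1*. Between *Δhap1* and *HAP1* cells at 6 h 0.0184% were called, and 1.52% of all genes and none of the 9 had such an unadjusted p. For the difference of the 6 h change 0% were called, and 1.74% of all genes and none of the 9 had it. With cobalt 0.147% were called, and 10.2% of all genes and 1 of the 9, *CTR1*, had it. At 1.5 h against air it was 15.7% of all genes and 3 of the 9, *CTR1*, *CTR3* and *CTR2*, all lower, and in *Δhap1* cells at 6 h against air 30.6% of all genes and 2 of the 9, *CTR1* and *FRE1*.

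Groups of 3 arrays that did not overlap can be read against the share of all genes that did the same. In *HAP1* cells at 1.5 h against air, *CTR1* and *CTR2* lay wholly below, as did 2.22% of all genes. At 6 h against air *FET4* lay wholly above, as did 4.11%, and *FRE1* wholly below, as did 7.62%. At 6 h against 1.5 h *CTR2* lay wholly above, as did 4.73%, and *FRE1* and *CCC2* wholly below, as did 17.7%. In *Δhap1* cells at 6 h against air *FRE1* and *CCC2* lay wholly below, as did 13.9%. With cobalt *CTR1* lay wholly below air, as did 5.51%. Between *Δhap1* and *HAP1* cells, in air or at 6 h, each of the 9 genes overlapped.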

How the data were processed

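RNA of 8 conditions was measured, with 3 arrays each. The authors read the images in GCOS, and RMA gave each intensity; it corrects background and scales arrays to a like distribution, and the intensity values they deposited are linear. The array types were normalized separately, so no level was compared between them. The depth of an array is not counted, and 3 arrays a group limit the precision.

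Here log2 was taken of each intensity and probe sets were named by the platform's annotation. Where several named a gene (47 genes on the L51 arrays), the probe set of highest mean log2 was used. Each of the 9 genes had 1 probe set on the L51 arrays. Hybridization times from the scanner's notes gave the rounds. Differences were fitted with limma 3.58.1 in R 4.3.3 over all genes of an array type, with Benjamini-Hochberg adjustment at 0.05. In the L51 fit the replicate number was a block beside the condition, since the study's fold changes set arrays of the same number against each other. Deviations of same-numbered arrays had median correlations of 0.56, 0.71 and 0.25, and their lowest pairs were at -0.09, -0.38 and -0.44. The heme fit held no block. Replicate numbers come from the titles; in 1 case another label differs. The fit was also run on simulated data with independent noise and no replicate or round effects, so that run does not bear on such effects here.

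All 9 genes are given in every comparison where a value adds something, with up to 4 genes past the threshold per list and 3 pattern neighbours for *FET4* and each gene called on the L51 arrays. The genes and the lists were chosen with earlier results of these data known. Alternatives were the scaling, an offset, a filter on dim genes, averaging probe sets of a gene, only the groups compared, the block, and left-out arrays. Leaving out each L51 array on its own, for the list genes 1.5 h replicate 3, was added after seeing the data. No column was left unused (0).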

Additional observations from a re-analysis of the deposited data

Results flagged for a closer look

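*CCC2* responded differently at the 2 times without oxygen in *HAP1* cells: its change from air at 6 h minus that at 1.5 h was -2.21, with levels of 8.51 ± 1.21 at 6 h and 10.72 ± 0.36 at 1.5 h (SD, n = 3, adjusted p = 0.031), and 2 of the 6 h arrays were below background. *FRE7* was lower in *Δhap1* than in *HAP1* cells on all 3 same-numbered arrays in air (-0.14, -0.40 and -0.22) and higher on all 3 at 6 h without oxygen (0.03, 0.38 and 0.63), which differ by -0.60. The test of that difference, taken at 6 h minus air, gave 0.60 in limma (SE 0.41, adjusted p = 0.93), and 10 of the 18 *FRE7* values were at or below background.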

How the results depend on the processing

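Over 81 differences (9 genes in 9 comparisons) and 2276 values under the alternatives, 2136 kept their direction and their side of the threshold, 32 lost and 35 gained a call, and 73 changed sign without a call on either side. The 1 call among the 9 genes at 6 h against air in *HAP1* cells became 0 with only the groups compared, with no replicate block and with the hybridization round as the block, and 3 (*FRE1*, *CCC2*, *FET4*) without the 3 arrays that stand apart (replicate 3 of 1.5 h, 6 h and cobalt). Of all 5449 genes these 4 fits called 0, 9, 0 and 388. The 1 call at 6 h against 1.5 h became 0 with only the groups compared, no replicate block or the round as the block, where 0, 0 and 168 of all genes were called. It became 2 with quantile or cyclic loess scaling, an offset of 50 or without the 3 arrays, where 526, 513, 910 and 1451 of all genes were called. At 1.5 h against air the count was 0, and 1 with either scaling (*CTR1*) and 3 without the 3 arrays. Quantile scaling called 9 of all genes there, cyclic loess scaling 5 and the fit without the 3 arrays 462. For *Δhap1* cells at 6 h against *Δhap1* cells in air the count was 0, and 2 (*FRE1*, *CCC2*) with only the groups compared or without the 3 arrays, beside 1030 and 770 of all genes. The 3 heme calls became 5 with the round as the block (*CTR2* and *ATX1* added), and were 3 with the replicate block, which changed no call of the 9 genes. With arrays left out the counts were 0 to 3 at 6 h against air, 0 to 3 at 6 h against 1.5 h, 0 to 4 at 1.5 h, 0 to 1 in *Δhap1* cells and 1 to 3 for heme. Over all genes the alternatives gave 0 to 388 calls around 117 at 6 h against air, 0 to 492 around 2 at 1.5 h, 0 to 1451 around 832 at 6 h against 1.5 h, 0 to 1030 around 593 in *Δhap1* cells, and 18 to 981 around 93 for heme, with 981 under the round block and 408 under the replicate block. The cause of these changes was not tested. Where a fit holds only 6 arrays or 2 a group, fewer arrays estimate the spread.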
